A study of Homo sapiens with 8 samples.

Results

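The genes described here are 10 genes of heme breakdown and iron handling, out of 20263 genes in the deposited table. They are the heme oxygenases HMOX1 and HMOX2, the biliverdin reductases BLVRA and BLVRB, the ferritin subunits FTH1 and FTL, the transferrin receptor TFRC, the iron exporter SLC40A1, the ferritin receptor NCOA4 and the heme-forming enzyme FECH. They were chosen by name and function with earlier results of the same contrast known, so their differences between the groups are given as a description without a test. RNA was sequenced from PANC-1, an established human cell line that derives from a pancreatic duct tumor. Cultures received 10 μM Eupalinolide B (EB), a sesquiterpene lactone from the herb Eupatorium lindleyanum, or the vehicle dimethyl sulfoxide (DMSO), for 24 h, and each group has 4 libraries. The table gives TPM, that is, a gene's share of the transcripts in a library, corrected for transcript length and scaled to a fixed sum. The comparison asks which transcripts differ after EB, and it rests on 1 cell line, 1 dose and 1 time point.

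Heme oxygenase opens the heme ring and releases iron, carbon monoxide and biliverdin, and biliverdin reductase turns biliverdin into bilirubin. The iron that is set free is stored in the ferritin shell, built from heavy (FTH1) and light (FTL) chains, or leaves the cell through ferroportin (SLC40A1). HMOX1 is the inducible heme oxygenase and responds to oxidants, electrophiles and heme, whereas HMOX2 is the form that most cells carry at rest. Part of this system is controlled at the RNA: iron regulatory proteins bind a hairpin called the iron responsive element (IRE), which blocks translation when it lies in the 5′UTR and protects the transcript when it lies in the 3′UTR.

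The hairpins are shown because they set the members with RNA-level control by iron apart from the rest. The canonical IRE was searched as a bulged C, 5 paired bases and the loop CAGTGN in the canonical transcripts of GENCODE release 44 (hg38). N could be A, C or T, and G with T counted as a pair. The IRE was found in a UTR of 4 of the 10 genes, namely once in the 5′UTR of FTL, SLC40A1 and FTH1 and 4 times in the 3′UTR of TFRC. Of 19977 transcripts searched, 0.0601% held a match in the 5′UTR and 0.491% in the 3′UTR. Each hairpin is written as DNA on the strand of the gene, 5′ to 3′, with the bulged C and the loop in capitals:
FTL, 5′UTR, chr19:48965336-48965362, plus strand: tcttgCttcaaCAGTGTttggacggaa
SLC40A1, 5′UTR, chr2:189580662-189580688, minus strand: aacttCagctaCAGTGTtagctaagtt
TFRC, 3′UTR, chr3:196050980-196051006, minus strand: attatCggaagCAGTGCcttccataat
TFRC, 3′UTR, chr3:196050576-196050602, minus strand: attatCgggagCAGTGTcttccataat
TFRC, 3′UTR, chr3:196050511-196050537, minus strand: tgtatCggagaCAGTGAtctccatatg
TFRC, 3′UTR, chr3:196050464-196050490, minus strand: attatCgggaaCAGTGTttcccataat
The hairpin of FTH1 lies at chr11:61967575-61967601, at bases 34 to 60 of its transcript. All 4 TFRC hairpins lie between bases 3290 and 3832 of a transcript of 5012 nucleotides. HMOX1, HMOX2, BLVRA, BLVRB, NCOA4 and FECH held no match to this pattern in a UTR.

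Before the values, some facts of the libraries bear on them. DMSO replicate 4 stood apart: mitochondrially encoded genes took 39.0% of its TPM, against 17.0% to 21.1% in the other DMSO libraries and 11.6% to 20.3% with EB. Because TPM are shares, this lowers the TPM of all other genes in that library. Differences without it are given for some genes only, and group means, SDs and ratios include it. The ranges of the members with each library left out are given further below. The difference between EB and DMSO also followed transcript length over all genes tested. Its median was 0.41 on the log2 scale in the 1169 genes with the shortest transcripts (up to 1225 nucleotides) and −0.54 in the 1168 genes with the longest (from 7317 nucleotides). Each difference of a member is therefore also given after removal of the trend on length and GC content from each library, named the trend-removed difference. The part of this trend in the values was not tested. Of the ductal markers KRT8, KRT18, KRT19, SOX9, KRT7 and EPCAM, the last 2 stayed under 1 TPM in all libraries (highest 0.297 and 0.387). KRT8, KRT18 and KRT19 had mean TPM of 755.1, 399.3 and 163.4 with DMSO and 1710, 1119 and 568.6 with EB, while SOX9 went the other way, from 148.5 ± 19.3 to 57.1 ± 11.9 TPM (SD, n = 4). The 6 summed to 1129 to 1594 TPM with DMSO and 3262 to 3652 TPM with EB. The 5 erythroid markers summed to 6.97 to 9.86 TPM with DMSO and 7.48 to 10.7 TPM with EB, with HBB at 0 in all libraries. The immune markers reached at most 0.0211 TPM and the endothelial markers at most 0.305 TPM. The 4 fibroblast markers summed to 64.0 to 91.8 TPM with DMSO and 38.7 to 50.5 TPM with EB, nearly all of it COL1A2, and DCN was at 0 in all libraries. A lower share of cells expressing a gene and less RNA per cell cannot be told apart in these bulk libraries.

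All 9 members other than SLC40A1 reached at least 1 TPM in each of the 8 libraries. Every EB library lay above every DMSO library for 6 members (HMOX1, HMOX2, BLVRA, BLVRB, FTH1 and FTL), an order seen in 16.6% of all genes tested. Every EB library lay below every DMSO library for NCOA4 and FECH, an order seen in 20.3% of all genes tested. TFRC overlapped between the groups. In the fit used here, HMOX1 alone of the members passed the thresholds that the study names, on the side higher with EB. These are a log2 difference above 1.5 with p under 0.05 before adjustment. On that side 0.537% of all genes tested passed them. The members were chosen with these values known, so nothing is read from the counts. The median difference over the 9 members was 0.65 and the trend-removed median 0.35, beside −0.11 and 0.02 over all genes tested.

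**Figure D1:**
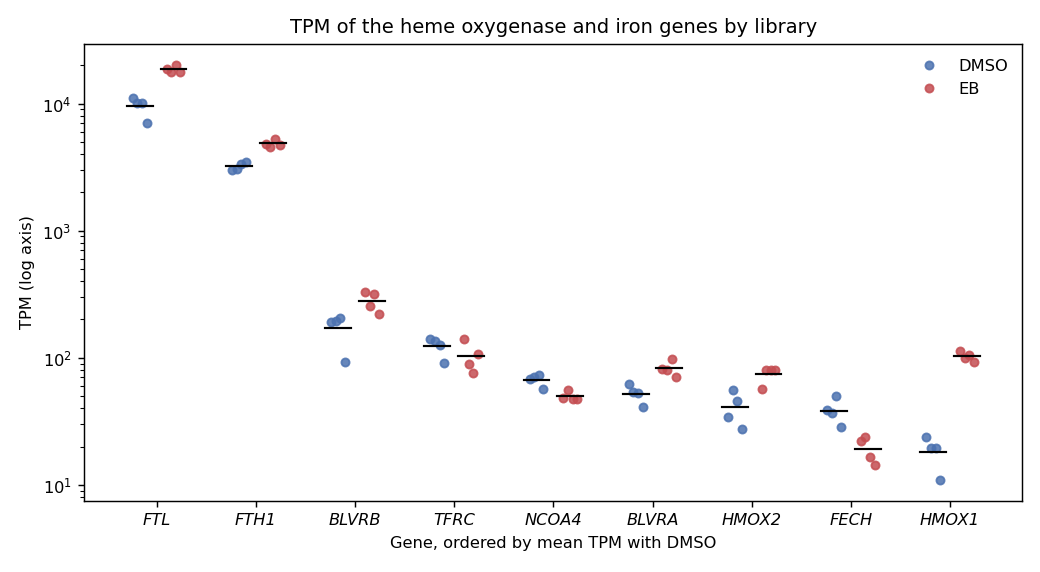
TPM of 9 genes (log axis) in each of the 4 DMSO libraries (blue) and 4 EB libraries (red), drawn in the order of the replicate numbers, with the group mean as a black line. Genes are ordered by their mean with DMSO. The EB points of HMOX1 lie between 93.4 and 112.3 TPM against 10.9 to 23.6 TPM with DMSO, the ferritin chains lie far above all other members, and only TFRC overlaps between the groups.

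HMOX1 (ENSG00000100292, chr22:35380361-35394214, plus strand of hg38) had 23.6, 19.4, 19.3 and 10.9 TPM in DMSO replicates 1 to 4 and 112.3, 99.9, 104.6 and 93.4 TPM in EB replicates 1 to 4. The lowest EB library was well above the highest DMSO library. The ratio of the group means was 5.60, and on the log2(TPM + 1) scale, which was used for all differences, EB exceeded DMSO by 2.47 (SE 0.21, n = 4 per group). Trend-removed, the difference was 2.27 (SE 0.11). Among all genes tested, it stood at the 99.9th percentile both before and after the trend was removed. By mean TPM among nuclear genes, HMOX1 moved from rank 5953 with DMSO to rank 1421 with EB.

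HMOX2 (chr16:4474690-4510347, plus strand), the constitutive enzyme, had 34.0, 55.9, 45.8 and 27.4 TPM with DMSO and 57.0, 80.6, 80.1 and 80.6 TPM with EB. The groups came close, since EB replicate 1 was only just above DMSO replicate 2. The difference was 0.89 (SE 0.22), and 0.72 (SE 0.19) trend-removed. HMOX2 overlaps NMRAL1 on the other strand, and whether the counting used strand is not given in the sources used here, so reads of the pair may not be separated. Within a library, HMOX1 per HMOX2 was 0.346 to 0.694 with DMSO (mean 0.465 ± 0.156, SD, n = 4) and 1.16 to 1.97 with EB (1.42 ± 0.372, SD, n = 4). HMOX2 was thus the more abundant heme oxygenase transcript in all 4 DMSO libraries and HMOX1 in all 4 EB libraries. This ratio does not depend on the total to which TPM are scaled.

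Among the 5 genes whose profile over the 8 libraries came closest to that of HMOX1 were UPP1, ASNS, CCN1 and AKR1C1. Likeness was the root mean square difference of log2(TPM + 1) after each gene was centred on its DMSO mean. UPP1, uridine phosphorylase, stood at 0.188, with 49.6 ± 16.8 TPM with DMSO and 279.5 ± 54.9 TPM with EB (SD, n = 4). It was also lowest in DMSO replicate 4, at 28.4 TPM. The values were 0.208 for ASNS, asparagine synthetase, 0.208 for CCN1, a matricellular protein, and 0.217 for AKR1C1, an aldo-keto reductase. Their mean TPM with EB ran from 33.7 (AKR1C1) to 279.5 (UPP1), so the likeness concerns the size of the difference and not the level.

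BLVRA and BLVRB act on the product of heme oxygenase; BLVRA is the main adult biliverdin reductase, and BLVRB is also known as a flavin reductase. BLVRA (chr7:43758680-43807342, plus strand) had 61.8, 53.6, 52.5 and 41.1 TPM with DMSO and 80.9, 80.7, 98.6 and 70.0 TPM with EB. The difference was 0.65 (SE 0.16), falling to 0.35 (SE 0.09) trend-removed. BLVRB (chr19:40447765-40465764, minus strand) had 191.2, 196.1, 204.6 and 92.9 TPM with DMSO and 328.2, 253.7, 315.8 and 219.6 TPM with EB. Both genes kept the order of EB above DMSO in every library, but for BLVRB the highest DMSO library was close under the lowest EB library and DMSO replicate 4 was far below the rest. The BLVRB difference was 0.75 (SE 0.26) with all libraries, 0.48 without DMSO replicate 4, and 0.41 (SE 0.15) trend-removed. BLVRB per BLVRA did not separate the groups, at 3.23 ± 0.727 with DMSO and 3.39 ± 0.449 with EB (SD, n = 4). Their transcripts are among the shortest of the members, at 1074 nucleotides for BLVRA and 799 for BLVRB.

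The ferritin chains were by far the most abundant members. FTL (chr19:48965309-48966879, plus strand) had 11003, 10037, 10055 and 7042 TPM with DMSO and 18750, 17613, 20184 and 17789 TPM with EB. Among nuclear genes it ranked 1 or 2 in the DMSO libraries and 1 in every EB library. The difference was 0.98 (SE 0.15), and 0.64 (SE 0.07) trend-removed. FTH1 (chr11:61959718-61967634, minus strand) had 3006, 3056, 3323 and 3459 TPM with DMSO and 4846, 4575, 5244 and 4751 TPM with EB. Unlike FTL, FTH1 was highest rather than lowest in DMSO replicate 4. Its difference was 0.60 (SE 0.11), and 0.32 (SE 0.12) trend-removed. FTH1 and BEST1 overlap on opposite strands, and the annotation names 25 pseudogenes after FTH1 and 16 after FTL, none of which has a row in the table. How reads shared with these copies were counted is not given in the sources used here, so the ferritin levels are uncertain to that extent.

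Together, FTL and FTH1 took 1.05% to 1.40% of all TPM with DMSO (1.27% ± 0.154, SD, n = 4) and 2.22% to 2.54% with EB (2.34% ± 0.146, SD, n = 4). Counted over nuclear genes only, the share was 1.66% to 1.72% with DMSO (1.69% ± 0.0253, SD, n = 4) and 2.60% to 2.90% with EB (2.75% ± 0.136, SD, n = 4). On that scale DMSO replicate 4, at 1.72%, no longer stood below the other DMSO libraries. FTL per FTH1 was 3.66, 3.28, 3.03 and 2.04 in DMSO replicates 1 to 4 and 3.87, 3.85, 3.85 and 3.74 in EB replicates 1 to 4. The light chain thus exceeded the heavy chain in all libraries, and the ratio was higher in every EB library than in any DMSO library, although DMSO replicate 1 came close. The ratio varied far more between DMSO libraries (SD 0.695) than between EB libraries (SD 0.0566). Much of the DMSO spread lay in replicate 4, the library that stood apart, at 2.04. The other DMSO libraries ran from 3.03 to 3.66.

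NCOA4 and FECH were the members with lower levels after EB. NCOA4 (chr10:46005088-46030623, minus strand), which carries ferritin to the autophagosome, had 68.3, 70.2, 73.2 and 56.6 TPM with DMSO and 48.5, 56.3, 47.0 and 47.4 TPM with EB. The groups almost touched, at 56.6 TPM in DMSO replicate 4 and 56.3 TPM in EB replicate 2. The difference was −0.42 (SE 0.13), and −0.24 (SE 0.07) trend-removed. FTH1 per NCOA4 was 43.5 to 61.1 with DMSO (48.5 ± 8.45, SD, n = 4) and 81.3 to 111.7 with EB (98.3 ± 12.6, SD, n = 4). The groups did not overlap in this ratio of ferritin heavy chain to its receptor. The length trend was not taken out of the ratio, and the transcripts have 1203 (FTH1) and 3461 (NCOA4) nucleotides.

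FECH (chr18:57544377-57586732, minus strand) encodes ferrochelatase, which inserts iron into protoporphyrin as the last step of heme synthesis. It had 38.6, 36.7, 49.7 and 28.6 TPM with DMSO and 22.3, 23.7, 16.7 and 14.2 TPM with EB. The ratio of the group means was 0.501. The difference was −0.96 (SE 0.21), and −0.46 (SE 0.12) trend-removed with length and GC content taken out together, so the size of the difference depended strongly on this step. FECH has the longest transcript of the members, 7689 nucleotides. HMOX1 per FECH, heme breakdown set against the last step of its synthesis, was 0.381 to 0.612 with DMSO and 4.22 to 6.57 with EB. The length trend was not taken out of this ratio, and the HMOX1 transcript has 1554 nucleotides.

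TFRC and SLC40A1, the routes of iron into and out of the cell, did not separate the groups. TFRC (chr3:196012511-196082153, minus strand), which takes up transferrin-bound iron, had 141.4, 134.7, 126.7 and 90.9 TPM with DMSO and 140.3, 88.9, 75.3 and 107.6 TPM with EB. EB replicate 1 was as high as the DMSO libraries and DMSO replicate 4 as low as the EB libraries. The difference was −0.28 (SE 0.21) and changed sign to 0.09 (SE 0.18) when the trend was removed. TFRC per FTH1 was 0.0389 ± 0.00918 with DMSO and 0.0214 ± 0.00612 with EB (SD, n = 4), and it overlapped at 0.0263 in DMSO replicate 4 and 0.0290 in EB replicate 1. From this ratio, too, the trend was not removed. SLC40A1 (chr2:189560590-189583758, minus strand) was listed at 0 in 7 libraries and at 0.0370 TPM in DMSO replicate 4, and it was not tested. Without read counts, the level at which it would have been detectable is unknown.

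In DMSO cells the members ran, from the highest mean TPM, FTL, FTH1, BLVRB, TFRC, NCOA4, BLVRA, HMOX2, FECH, HMOX1 and SLC40A1. BLVRB and TFRC did not differ beyond their spread (mean ± SD ranges overlap), nor did neighbours from NCOA4 to FECH. With EB the order was FTL, FTH1, BLVRB, TFRC, HMOX1, BLVRA, HMOX2, NCOA4, FECH and SLC40A1. There TFRC and HMOX1, at 103.0 ± 28.2 and 102.5 ± 7.95 TPM (SD, n = 4), did not differ beyond their spread, nor did BLVRA and HMOX2. HMOX1 moved from place 9 to place 5, past FECH, HMOX2, BLVRA and NCOA4. TPM are levels per transcript length, but the length trend in the differences and the shared reads named above limit how far levels of transcripts of 799 to 7689 nucleotides, and their order in each group, can be compared.

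The members that lay higher with EB all have shorter transcripts, 799 to 1673 nucleotides, than TFRC, NCOA4 and FECH, 3461 to 7689 nucleotides. Over all genes tested the same direction was seen. HMOX1 and HMOX2 changed least in proportion when the trend was removed, from 2.47 to 2.27 and from 0.89 to 0.72. The differences of BLVRA, BLVRB, FTH1, FTL, NCOA4 and FECH became smaller by over 1.5 times. All kept their direction, with TFRC as the exception.

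**Figure D2:**
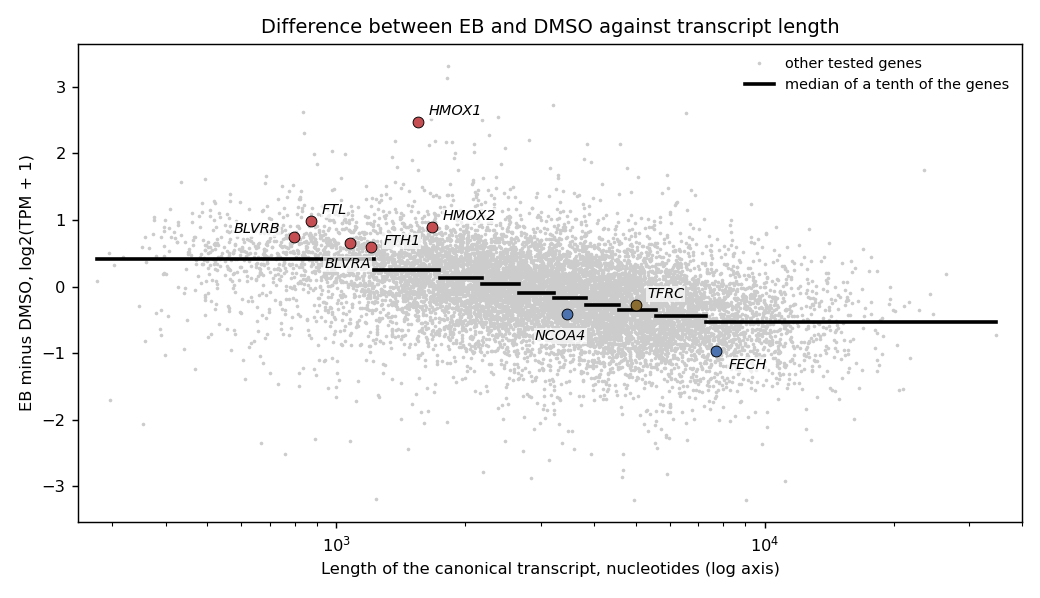
Difference between EB and DMSO on log2(TPM + 1) against the length of the canonical transcript in nucleotides (log axis) for all genes tested (grey), with the genes split by length into 10 bins of like size and the median of each bin as a black bar. Members above DMSO in every EB library are red, those below are blue and TFRC, which overlapped, is brown. The bars descend from 0.41 to −0.54. HMOX1 at 2.47 lies far above its bar and TFRC lies close to its own.

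**Figure D3:**
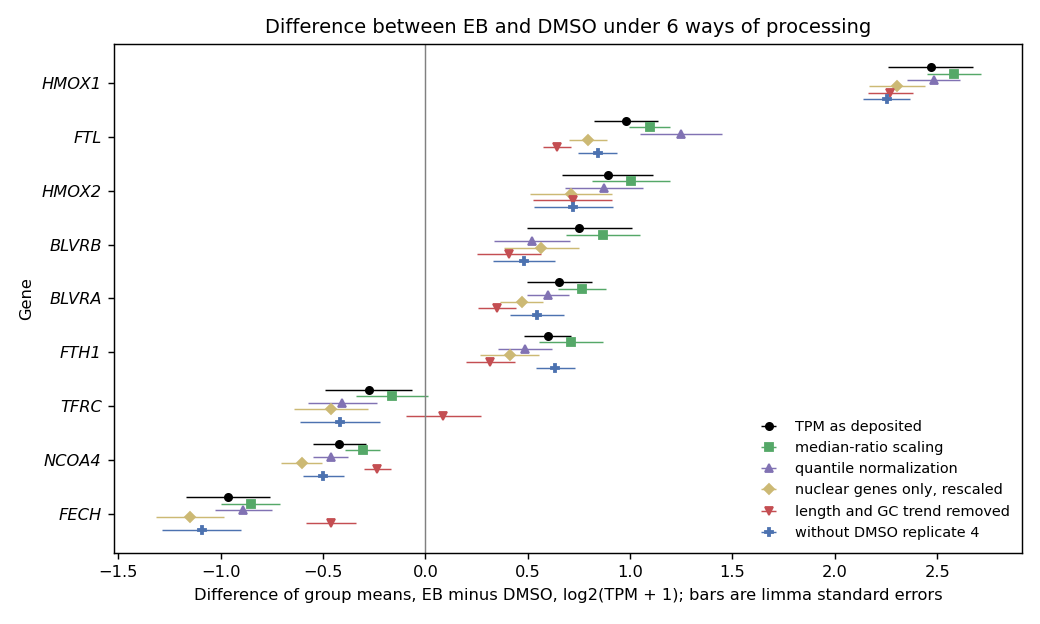
Difference between EB and DMSO on log2(TPM + 1) for 9 members, with limma standard errors as bars, in the TPM as deposited and under 5 other settings. HMOX1 lies between 2.25 and 2.58 in all of those drawn. TFRC is the member whose sign changes, to 0.09 with the length and GC trend removed.

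Windows of 250 bases before to 50 after a start site were listed in RefSeq (hg38) for 8 members, 10 windows in all, and HMOX1 and FTH1 were not searched. Both strands were searched for TGACNNNGC (antioxidant response element), TGANTCA (AP-1), CACGTG (E-box), TGATGNAA (C/EBP-ATF) and TTCNNGAA (heat shock element). TGANTCA and TGACNNNGC can overlap in the same bases. TGACNNNGC was in 2 of the 10 windows, 1 of NCOA4 and 1 of FECH, against 13.3% of 35116 windows. TTCNNGAA was in 2 windows, of NCOA4 and FTL, against 7.74% of all windows. TGANTCA was in 1 window (NCOA4, 7.71% of all), CACGTG in 1 (HMOX2, 7.26%) and TGATGNAA in 0 (3.62%). With so few windows these are matches of letters only.

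The wider pathway was described with 123 other genes in 10 groups, of which 102 were tested in the same limma fit. These genes are not members, and their lists were also drawn up with earlier results of these data known. At a limma adjusted p under 0.05 over all genes, 23 (22.5%) were higher with EB and 16 (15.7%) lower, beside 15.2% higher and 25.1% lower of all 11725 genes tested. Trend-removed, 38 (37.3%) were higher and 13 (12.7%) lower, beside 24.4% higher and 21.8% lower of the 11685 genes in that fit. Of the listed genes, 20 and 10 were called in the same direction in both. With nuclear genes only and TPM rescaled to them, 22 were higher and 26 lower, and over all genes the split went from 1785 higher and 2944 lower to 1451 and 4954. Over all genes it was 3039 and 3080 with median-ratio scaling and 2792 and 2759 with quantile normalization. The count of listed genes lower was 10 without DMSO replicate 2 or 3 or EB replicate 3 or 4. The median difference of the listed genes was 0.14, and 0.19 trend-removed. The counts of each group below are to be read beside these shares and counts over all genes in the same setting.

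**Figure D4:**
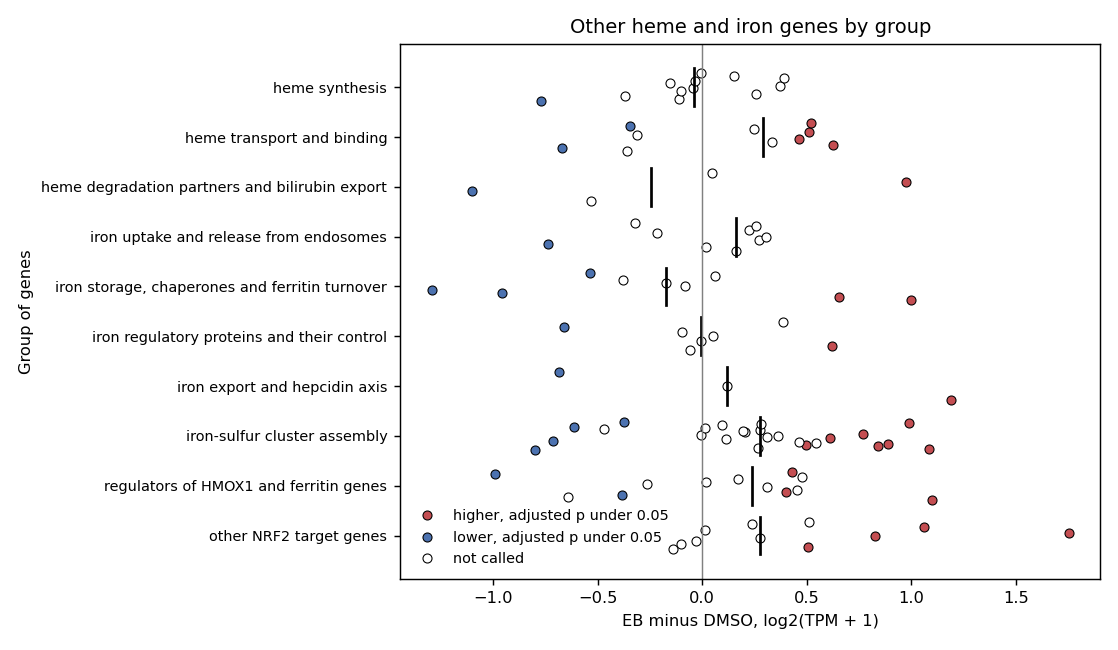
Difference between EB and DMSO on log2(TPM + 1) for the 102 tested heme and iron genes that are not members, by group. Red and blue points passed a limma adjusted p under 0.05 over all genes, open points did not, and black lines are medians. OSGIN1 at 1.75 and LCN2 at −1.29, a value that the pseudocount sets, are the outermost points, and the iron-sulfur group holds called genes on both sides.

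In heme synthesis, 0 of 12 tested genes rose by limma and 1 fell, with 1 on each side at an unadjusted p under 0.05 and 2 on each side called trend-removed. With median-ratio scaling 4 were higher and 1 lower, with quantile normalization 2 and 1, and with nuclear genes only 0 and 3. The one that fell was ABCB10, a mitochondrial transporter that partners with the heme-forming machinery, with a difference of −0.77 (SE 0.19, limma adjusted p = 0.0122). ALAS1, the rate-limiting enzyme in non-erythroid cells, had 59.2 ± 8.05 TPM with DMSO and 70.7 ± 6.63 TPM with EB (SD, n = 4) and was not called, with a difference of 0.26 and a limma adjusted p of 0.166. ALAS1 was called higher when trend-removed (0.23, limma adjusted p = 0.0275) and with median-ratio scaling (0.37, limma adjusted p = 0.00528). Without DMSO replicate 4 its difference was 0.16. ALAS2, the erythroid form, reached at most 0.0242 TPM and was not tested.

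Of 10 tested genes that move or bind heme, 4 rose and 2 fell (4 and 4 with nuclear genes only). HEBP1, a heme-binding protein, rose by 0.63 (limma adjusted p = 0.0116, 0.34 trend-removed) and SLC48A1, which exports heme from lysosomes, by 0.52 (limma adjusted p = 0.0169). PGRMC1, a heme-binding membrane protein that interacts with FECH, rose by 0.51 (limma adjusted p = 0.0235), a call lost without DMSO replicate 2 (0.51) or EB replicate 1 (0.46), 2 (0.49) or 3 (0.51). FLVCR2, a transporter of the FLVCR family, fell by 0.67 (limma adjusted p = 0.00765), from 3.48 ± 0.631 to 1.82 ± 0.415 TPM (SD, n = 4). All 4 kept their call with the trend removed. The other called genes, named after their values were seen, were NR1D1, a heme-sensing nuclear receptor (0.46), and SLC46A1, a folate and heme importer (−0.35), the latter at 0.10 and not called when trend-removed.

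Among partners of heme breakdown and bilirubin export, 4 genes were tested, of which 1 rose and 1 fell. ABCC2, which exports conjugated bilirubin at the apical membrane, had 42.6, 43.5, 41.5 and 27.7 TPM with DMSO and 19.4, 22.4, 14.7 and 14.0 TPM with EB. ABCC3, the basolateral exporter, had 1.67, 1.13, 1.57 and 1.63 TPM with DMSO and 4.82, 3.24, 5.22 and 2.73 TPM with EB. Both separated the groups, in opposite directions. ABCC2 fell by 1.10 (SE 0.20, limma adjusted p = 0.00246) and ABCC3 rose by 0.98 (SE 0.18, limma adjusted p = 0.00298), and both calls held with the trend removed (−0.68 and 1.38).

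Of 9 tested genes of iron uptake, 0 rose by limma and 1 fell, with the same counts at an unadjusted p under 0.05 and 2 higher and 0 lower trend-removed. The latter was HFE, the hemochromatosis protein that binds TFRC, which went from 6.12 ± 2.13 to 3.21 ± 0.916 TPM (SD, n = 4). Its difference was −0.73 with a limma adjusted p of 0.0333, the groups overlapped between DMSO replicate 4 and EB libraries, and the call was lost with the trend removed (−0.35, limma adjusted p = 0.108). It was also lost without DMSO replicate 2 (−0.58) or 3 (−0.64) or EB replicate 3 (−0.69) or 4 (−0.60). In storage and ferritin turnover, 2 of 9 tested genes rose and 3 fell (1 and 5 with quantile normalization or nuclear genes only). The risers BOLA2, at 32.8 TPM with DMSO and 63.9 TPM with EB, and GLRX3, at 112.7 and 177.9 TPM (group means), encode partners in one cytosolic iron chaperone complex. BOLA2 has a near-identical copy, BOLA2B, so its TPM are uncertain, and its trend-removed difference was 0.61. The GLRX3 difference of 0.66 lost its call with the trend removed (0.42, limma adjusted p = 0.0619), with quantile normalization (0.49) and with nuclear genes only (0.47). HERC2, a ubiquitin ligase known to act on NCOA4, fell by 0.96 (limma adjusted p = 0.0121), from 13.4 ± 4.32 to 6.14 ± 1.01 TPM (SD, n = 4), and its transcript is 15364 nucleotides long. The trend-removed difference of HERC2 was −0.40 and still called. LCN2, lipocalin 2, a siderophore-binding secreted protein, had 1.12 to 2.12 TPM with DMSO. It was listed at 0 in 3 EB libraries and at 0.153 TPM in EB replicate 3. LCN2 passed the filter of 1 TPM in at least 4 libraries only through the DMSO libraries, where it is high. Its call among the 3 fallers (limma adjusted p = 0.000251) is therefore no test of the fall. Its difference depended on the pseudocount, at −1.29 with 1 and −3.69 with 0.1. The remaining called gene, SLC25A37, a mitochondrial iron importer named after its value was seen, had −0.54 and was not called when trend-removed (−0.21).

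The proteins that bind the hairpins printed above are encoded by ACO1 and IREB2. ACO1 had 13.0 ± 3.91 TPM with DMSO and 12.4 ± 3.33 TPM with EB (SD, n = 4) and was not called (−0.06, limma adjusted p = 0.856). Its sign turned with the processing, to 0.43 with the trend removed. IREB2 had 11.3, 11.8, 11.1 and 8.45 TPM with DMSO and 6.73, 6.85, 6.54 and 5.30 TPM with EB, without overlap. It fell by 0.66 (SE 0.14, limma adjusted p = 0.00548), and the trend-removed difference was −0.22, not called (limma adjusted p = 0.0527). FBXL5, the iron-sensing ligase subunit that targets both proteins, was not called (−0.10, limma adjusted p = 0.738). CIAO2A, an iron-sulfur targeting factor that matures the ACO1 product, rose by 0.62 (limma adjusted p = 0.0051, 0.30 trend-removed), from 48.6 ± 5.95 to 75.1 ± 5.24 TPM (SD, n = 4). In the TPM as deposited it was the only riser of the 7 genes in this group and IREB2 the only faller, whereas 3 were higher and 0 lower trend-removed.

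Of 9 genes of iron export and the hepcidin axis, 3 were tested. BMP6, the ligand that tells the liver of iron load, rose by 1.19 (SE 0.14, limma adjusted p = 0.000318), from 1.23 ± 0.291 to 4.05 ± 0.494 TPM (SD, n = 4), and 1.41 trend-removed. It had 1.21, 1.21, 1.60 and 0.886 TPM with DMSO. The filter of 1 TPM in at least 4 libraries was therefore met only with EB libraries counted, where BMP6 is high. For this reason its call is no clean test of the rise. With a minimum of 5 TPM, 0 genes of this group were called higher. The BMP6 difference was 1.67 with a pseudocount of 0.1. NEO1, a co-receptor partner of hemojuvelin, fell by 0.68 (limma adjusted p = 0.0377), but its groups overlapped and the call was lost with the trend removed (−0.21, limma adjusted p = 0.361). It was also lost when any 1 library other than DMSO replicate 4 or EB replicate 2 was left out (−0.74 to −0.46).

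Iron-sulfur cluster assembly was the largest group, with 25 genes tested. Of these, 7 rose (28%) and 4 fell (16%), beside 15.2% and 25.1% of all genes tested. The counts were 12 and 5 trend-removed (48% and 20%, beside 24.4% and 21.8% of all genes in that fit). They were also 12 and 5 with median-ratio scaling, where all genes gave 3039 and 3080. With quantile normalization they were 11 and 4, where all genes gave 2792 and 2759. The risers with the largest differences were BOLA3, a late factor of mitochondrial assembly, which went from 77.1 ± 10.98 to 163.9 ± 16.2 TPM (SD, n = 4; difference 1.08, limma adjusted p = 0.000507), and NUBP2, CIAPIN1 and CIAO2B of the cytosolic pathway. NUBP2 rose by 0.99 (limma adjusted p = 0.00405), CIAPIN1 by 0.89 (limma adjusted p = 0.0186, lost at 0.82 without EB replicate 1) and CIAO2B by 0.84 (limma adjusted p = 0.00612). All 4 held with the trend removed, at 0.75, 0.79 and 0.47 in the same order and at 0.70 for BOLA3. Among the 4 fallers, named after their values were seen, were the reductase FDXR (−0.71), the cysteine desulfurase NFS1 (−0.61) and NUBPL (−0.37), a factor for complex I. All 4 were also lower with the trend removed.

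Among 12 tested regulators of HMOX1 and ferritin transcription, 3 rose and 2 fell (1 and 2 with quantile normalization, 2 and 3 with nuclear genes only). NFE2L2, which encodes NRF2, had 24.3, 36.7, 21.3 and 18.4 TPM with DMSO and 35.9, 43.6, 20.8 and 42.3 TPM with EB, and was not called (0.48, limma adjusted p = 0.177), though it was without EB replicate 3 (0.71). Nor was KEAP1, its repressor (0.45, limma adjusted p = 0.133), although it was called higher with the trend removed (0.48, limma adjusted p = 0.028), with median-ratio scaling (0.57) and with a replicate block (0.45). BACH1, the heme-regulated repressor of HMOX1, went from 13.1 ± 4.06 to 7.98 ± 2.09 TPM (SD, n = 4), just short of the threshold (−0.64, limma adjusted p = 0.0502). Trend-removed, BACH1 was at −0.24 (limma adjusted p = 0.268), while it was called lower without DMSO replicate 4 (−0.80) or EB replicate 2 (−0.76), with median-ratio scaling (−0.53), with nuclear genes only (−0.82) and with a replicate block (−0.64). ATF4, the stress-response factor, rose by 1.10 (limma adjusted p = 0.000844), from 218.3 ± 38.6 to 465.0 ± 50.8 TPM (SD, n = 4). SQSTM1, the autophagy adaptor that binds KEAP1, rose by 0.43 (limma adjusted p = 0.0145, not called at 0.16 with quantile normalization). HSF1, the heat shock factor, rose by 0.40 (limma adjusted p = 0.0208). HSF1 was not called with nuclear genes only (0.22), with quantile normalization (0.25) or with the trend removed (0.34). Nor was it called without DMSO replicate 1 (0.37) or 3 (0.40) or EB replicate 3 or 4 (0.39 each). NFE2L3, a relative of NRF2, fell by 0.99 (limma adjusted p = 0.000415), with 25.1 to 32.7 TPM with DMSO and 13.2 to 14.9 TPM with EB.

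Of 11 other tested targets of NRF2, 4 rose and 0 fell by limma, with the same counts at an unadjusted p under 0.05. OSGIN1, an oxidative stress response gene, had 21.7, 22.0, 22.8 and 12.3 TPM with DMSO and 87.9, 59.8, 64.3 and 59.2 TPM with EB, and rose by 1.75 (SE 0.21, limma adjusted p = 0.000396). SRXN1, sulfiredoxin, rose by 1.06 (limma adjusted p = 0.00393) and NQO1, the quinone reductase, by 0.83 (limma adjusted p = 0.0135). With the trend removed these 3 were again called, at 1.64, 1.06 and 0.84, and 7 of the 11 were higher in all, beside the 24.4% of all genes given above for that fit. With nuclear genes only, 5 of the group were higher and 1 lower. The difference of HMOX1, 2.47, was larger than any of these, though this order was not tested.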

How the data were processed

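RNA sequencing covered PANC-1 cells given EB or DMSO, 4 libraries each. The authors deposited 1 table of TPM. Its columns C and H were read as DMSO and EB, the only groups. Per the methods, reads were trimmed and mapped in CLC Genomics Workbench, and HISAT2 and StringTie were further tools. GrCM38 and hg38 are both named as the genome, and all identifiers were human. The methods speak of 4 biological replicates and also of triplicates. Read depth, and so counting error, is unknown. Positions, symbols (20148 of 20263 identifiers) and lengths are from GENCODE release 44 (hg38).

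TPM were used as deposited. Genes at 1 TPM or more in at least 4 libraries (11725) were fitted by limma 3.58.1 in R 4.3.3 on log2(TPM + 1), with a call at a Benjamini-Hochberg adjusted p under 0.05. The steps were tested on simulated data. The trend on length and GC content was removed with splines (11685 genes with both). Same-numbered libraries deviated together with r of 0.18, 0.05, −0.09 and 0.28, against −0.238 to 0.126 for pairs with unlike numbers. Whether the numbers pair the libraries is not known, and the main fit used no pairing.

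The members and lists were chosen with earlier results of these data known. Named are all members, at most 4 called genes per list by absolute difference, ACO1, IREB2, FBXL5, BACH1, NFE2L2, KEAP1 and ALAS1, and the 5 genes nearest to HMOX1. Other settings tried were no filter, a minimum of 5 TPM, a pseudocount of 0.1, median-ratio scaling, quantile normalization, nuclear genes only, the trend removal, eBayes with an intensity trend, the study's thresholds, a replicate block and each library left out. Some genes that the naming rule would include are not reported here. Protein identity was not analysed here.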

Additional observations from a re-analysis of the deposited data

Results flagged for a closer look

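In groups of 4 libraries, a library was taken as far from the others where its gap to the nearest, divided by the whole range of log2(TPM + 1), exceeded Dixon's critical value. Of 86 groups examined, 9 passed, and chance passes about 1 in 20. The groups share libraries and so are not independent. For 7 genes the library was DMSO replicate 4, the one with the highest mitochondrial share, and it was the lowest each time. These were BLVRB (92.9 TPM, gap 0.914 of the range), ABCB10 (9.16 TPM, 0.831), ABCC2 (27.7 TPM, 0.895), CIAPIN1 (33.2 TPM, 0.878), OSGIN1 (12.3 TPM, 0.921), SQSTM1 (505.1 TPM, 0.870) and SRXN1 (31.7 TPM, 0.930). HMOX2 was lowest in EB replicate 1 (57.0 TPM, gap 0.982), the EB library in which HMOX1 was highest. LCN2 was above 0 in EB replicate 3 alone of the EB libraries (0.153 TPM, gap 1). With the others at 0, the gap is 1 for any value above 0, so this pass was fixed by the floor. What sets these libraries apart was not tested.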

How the results depend on the processing

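Of the values that answer a comparison, 199 stayed within the replicate spread or, for counts, within 1.5 times, and 26 did not. With median-ratio scaling, all genes higher were 3039, listed genes higher 38 (18 lower) and FTH1 0.71; with quantile normalization, 2792 genes were higher, FTH1 was 0.49 and FTL 1.25. With nuclear genes only, all genes lower were 4954, listed genes 22 higher and 26 lower, FTH1 0.41 and NCOA4 −0.60. The length and GC trend removed gave 2850 genes higher, 38 listed genes higher, BLVRA 0.35, FTH1 0.32, FTL 0.64, TFRC 0.088, NCOA4 −0.24 and FECH −0.46. Median-ratio scaling moved the median of all genes from −0.11 to −0.01. In the fit used here, the study's thresholds passed 63 genes higher and 181 lower, and 1 and 0 listed genes. These counts over all genes differ from those the paper reports, and the reason was not tested. Leaving out 1 library gave 1270 to 1826 genes higher and 2073 to 4333 lower, and 20 to 24 listed genes higher and 10 to 24 lower: 10 without DMSO replicate 2 or 3 or EB replicate 3 or 4, and 24 without DMSO replicate 4. The members then ranged from 2.25 to 2.60 (HMOX1), 0.72 to 1.06 (HMOX2), 0.55 to 0.74 (BLVRA), 0.48 to 0.86 (BLVRB), 0.56 to 0.63 (FTH1), 0.84 to 1.06 (FTL), −0.44 to −0.14 (TFRC, without EB replicates 1 and 3), −0.50 to −0.38 (NCOA4) and −1.09 to −0.83 (FECH). ACO1 turned to 0.050, 0.17 and 0.43, and FBXL5 to 0.014, 0.025 and 0.087, with median-ratio scaling, quantile normalization and the trend removed; leaving out libraries gave −0.23 to 0.10 and −0.25 to 0.027. Calls were lost in 9 settings for NEO1, 7 each for HFE and HSF1, 4 for PGRMC1 and 3 for GLRX3. The cause of these shifts was not tested. A block for the replicate number gave 2231 genes higher, 3525 lower, 28 listed genes higher and 19 lower. Whether that number pairs the libraries is not known. Depth is unknown, so absence of SLC40A1 cannot be told from a low level.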

Other observations

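Of the 123 other heme and iron genes, ALAS2 (5′UTR) and TF (3′UTR) held the canonical hairpin in a UTR, and neither was tested. SLC7A11, the cystine transporter among the NRF2 targets, was below the level for testing: it had 0.334, 0.165, 0.215 and 0.202 TPM with DMSO and 1.27, 1.59, 1.40 and 0.898 TPM with EB, so every EB library lay above every DMSO library at a low level.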
